A study of Schizosaccharomyces pombe with 6 samples.

Results

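Captured interactions between the 3 centromeres of *Schizosaccharomyces pombe* (fission yeast) and the chromosome arms were taken from 3 interaction networks, for cells held in the G1, G2 and M phase of the cell cycle. A member was a pair of non-adjacent AseI restriction fragments. One midpoint lay in a centromere window (chromosome I, 3740000 to 3800000, chromosome II, 1590000 to 1655000, or chromosome III, 1065000 to 1145000). The other midpoint lay on an arm, over 100 kb from a chromosome end, outside the mating-type region (chromosome II, 2100000 to 2150000) and in a fragment whose deposited annotation named no LTR, rRNA gene, tRNA gene or transposable element. Positions and annotation chose the members and no measured value did. The rule found 10141 pairs with 10463 counts in G1 phase, 9269 pairs with 9759 counts in G2 phase and 7590 pairs with 7765 counts in M phase. Together they made 25782 different pairs, of 161355 between non-adjacent nuclear fragments in the series.

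Cells of strains MY291 (h- lue1 cdc10-129, G1 phase), MY284 (h- lue1 cdc25-22, G2 phase) and MY286 (h- lue1 nuc2-663, M phase) were shifted to 36°C for 4 h, a temperature at which the mutated gene product fails and the cells stop. Cdc10 is part of the transcription factor that starts the G1 to S programme, Cdc25 is the phosphatase that lets cells enter mitosis, and Nuc2 is a subunit of the anaphase-promoting complex. All groups share the h- mating type, the lue1 marker and the heat shift, and each phase is 1 strain, so phase, mutation and library cannot be told apart. The authors estimated a lower level of synchronization for the M phase cultures than for those of G1 and G2 phase. Chromatin was cross-linked, cut with AseI and ligated, and the joined ends were sequenced (Genome Conformation Capture, GCC). Each deposited table pools the 2 biological replicates of its phase, so no spread between replicates can be given. Intervals below cover counting error only, and each test compares pooled tables and not replicated conditions.

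A fission yeast centromere has a central core (cnt), which carries the kinetochore chromatin, between innermost repeats (imr) and outer repeats (dg and dh), which are packed in heterochromatin. In growing cells the centromeres gather beside the spindle pole body at the nuclear envelope, with the arms reaching away from them. In mitosis the spindle microtubules hold the centromeres and condensin folds the arms.

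The ends below show what was joined. Each is the first 60 bases of a fragment at its AseI cut, on the strand of the reference, with the 4 bases left by the cut (TAAT) in capitals. The first set holds centromere fragments with many arm pairs, to show how alike they are, and the second set 2 arm fragments near a centromere that had the most pairs in M phase of the fragments within 50 kb. Fragments were found by their cut sites in RefSeq assembly ASM294v3, where these lie at the same positions as in the tables.
dgI fragment, I:3756526-3756585: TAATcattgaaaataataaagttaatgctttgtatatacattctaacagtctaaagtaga
imr2 fragment, II:1613296-1613355: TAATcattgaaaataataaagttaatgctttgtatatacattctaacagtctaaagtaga
dhIII fragment, first copy, III:1111195-1111254: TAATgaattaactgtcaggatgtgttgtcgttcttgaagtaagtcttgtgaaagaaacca
dhIII fragment, second copy, III:1117955-1118014: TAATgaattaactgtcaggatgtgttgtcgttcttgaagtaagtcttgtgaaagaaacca
ucp12 fragment, III:1017271-1017330: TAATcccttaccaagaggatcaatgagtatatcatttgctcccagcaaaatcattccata
ard1 fragment, I:3729362-3729421: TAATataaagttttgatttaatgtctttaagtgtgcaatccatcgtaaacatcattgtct
The dgI end and the imr2 end are the same letters on different chromosomes, and so are the copies of the dhIII end on chromosome III. A centromere end therefore often cannot be placed on 1 centromere, whereas an arm end usually can: of the counts, 96.44%, 96.79% and 96.14% (G1, G2 and M phase) had an arm fragment without any 50 bp stretch that occurs elsewhere in the nuclear genome (here called repeat-free). By contrast, 89.8%, 91.31% and 88.95% had a centromere fragment that holds a 50 bp stretch found on another chromosome. Fragments under 50 bp hold no such stretch and count as repeat-free (279 of the arm fragments and 9 of the centromere fragments). The 43 longer repeat-free centromere fragments, which cover 43.49 kb, took part in 34, 60 and 35 pairs, or 0.7817, 1.38 and 0.8047 per kb. The 9 shorter ones had 6, 9 and 77 pairs. The 117 repeated ones, over 159 kb, had 9936, 9071 and 7366 pairs, or 62.49, 57.05 and 46.33 per kb. The centromere contacts described below are thus almost all contacts of repeated fragments, and the part that repetition plays in their number was not tested.

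The members were thinly sampled. Of the pairs, 97.54%, 96.68% and 97.96% (G1, G2 and M phase) had a single count. They touched 4782, 4465 and 4057 of the 8369 arm fragments, or 57.14% (56.08 to 58.2, Wilson 95% interval), 53.35% (52.28 to 54.42) and 48.48% (47.41 to 49.55). Per 1000000 network counts, those between centromeres and arms came to 5087 (4991 to 5185) for G1 phase, 4443 (4356 to 4532) for G2 phase and 3663 (3583 to 3746) for M phase. The order of the phases turned with the denominator. Of the 2056860, 2196581 and 2119634 network counts, 93.48%, 94.53% and 95.93% joined fragments that share a 50 bp stretch, directly or through the next fragment. Without such pairs 134116, 120141 and 86204 network counts were left, and the members made up 77321, 80222 and 89497 per 1000000, with M phase now the highest. Levels per fragment are therefore compared below within a phase, near against far, and only the ratios are compared between phases.

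Arm fragments next to a centromere met centromeres more often than distant fragments did in M phase, whereas in G1 and G2 phase the nearest 50 kb did not stand above the distant arm and the highest level lay from 100 to 200 kb. Distance was measured from a fragment's midpoint to the edge of the centromere window of its own chromosome. In M phase there were 196.3 centromere pairs per 100 arm fragments within 50 kb (178.1 to 215.9, exact Poisson 95% interval), 136.1 from 50 to 100 kb, 126.3 from 100 to 200 kb, 96.51 from 200 to 500 kb, 90.64 from 500 to 1000 kb and 78.52 beyond 1000 kb (75.9 to 81.2). In G1 phase the values were 121.8 (107.5 to 137.4) within 50 kb and 116.5 (113.3 to 119.7) beyond 1000 kb. In G2 phase they were 94.91 (82.36 to 108.8) and 107.4 (104.3 to 110.5). So near fragments exceeded far ones beyond counting error in M phase. In G1 and G2 phase the intervals of the nearest and the farthest fragments overlapped. The level from 100 to 200 kb, 135.4 in G1 phase (124 to 147.6) and 135.9 in G2 phase (124.5 to 148.1), stood above that beyond 1000 kb, and so did the level from 50 to 100 kb in G2 phase, 127.9 (113 to 144.2), but not in G1 phase, 101.9 (88.66 to 116.6). Per fragment, the level within 50 kb over that beyond 500 kb was 2.383 in M phase (2.159 to 2.631), 1.019 in G1 phase (0.9012 to 1.152) and 0.8661 in G2 phase (0.7538 to 0.9952), where the interval lies just below 1.

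**Figure D1:**
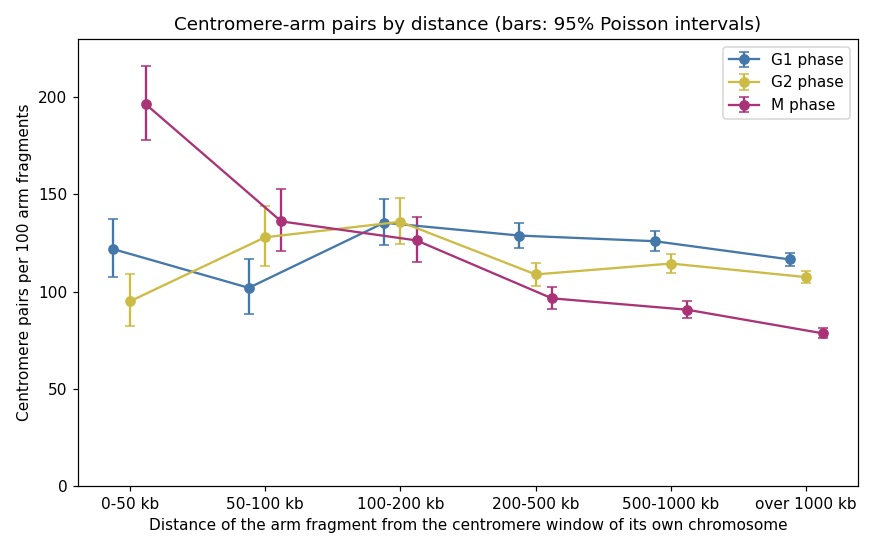
Centromere pairs per 100 arm fragments (vertical axis) by distance of the arm fragment from its own centromere window (horizontal axis), for the 3 phases; bars are exact Poisson 95% intervals. M phase falls from 196.3 within 50 kb to 78.52 beyond 1000 kb, while G1 and G2 phase are highest from 100 to 200 kb, at 135.4 and 135.9.

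As a share of all network pairs of the same arm fragments, which allows for fragments and tables that are seen more often, centromere pairs took 30.33% within 50 kb in M phase, 23.16% from 50 to 100 kb, 18.47% from 100 to 200 kb and 14.32% beyond 1000 kb. In G1 phase the shares of these 4 ranges were 14.59%, 12.63%, 13.72% and 13.94%. In G2 phase they were 13.67%, 16.77%, 16% and 14.66%, with the ranges from 50 to 200 kb the highest. More of the nearest fragments were also touched at all in M phase: 75.46% of the 216 fragments within 50 kb, against 44.24% of the 4338 beyond 1000 kb. The same shares were 55.09% and 55.81% in G1 phase and 49.54% and 52.28% in G2 phase.

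The ratio of pairs within 200 kb to pairs beyond 500 kb was 1.738 times as high in M phase as in G1 phase (1192 and 5236 pairs against 995 and 7595; two-sided Fisher's exact test, Benjamini-Hochberg adjusted over the 3 phase comparisons, p = 3.63e-32) and 1.597 times as high as in G2 phase (993 and 6966 pairs, adjusted p = 1.4e-23). Between G1 and G2 phase the ratio differed by a factor of 1.088 (Fisher's exact test, adjusted p = 0.0807). With near taken as within 50 kb, a range chosen after the profile was seen, the factors were 2.339 over G1 phase (424 pairs against 263, Fisher's exact test, adjusted p = 1.1e-26) and 2.752 over G2 phase (424 against 205, adjusted p = 7.15e-33). These tests treat pairs as independent, although pairs share fragments. No near pair of M phase had 3 or more counts, so the gradient rests on pairs seen 1 or 2 times, below the authors' cut-off for significant interactions.

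The rise was spread over the first 50 kb. In 10 kb steps, M phase had 215.4, 218.2, 165, 159 and 214.6 pairs per 100 fragments over the first 50 kb. G1 phase had 96.15, 120.5, 145, 117.9 and 136.6 in the same steps, and G2 phase 92.31, 104.5, 72.5, 102.6 and 102.4. All 5 steps of M phase stood above its own level beyond 1000 kb, 78.52. In G1 phase 4 of the 5 stood above 116.5, and in G2 phase all 5 stood below 107.4.

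**Figure D2:**
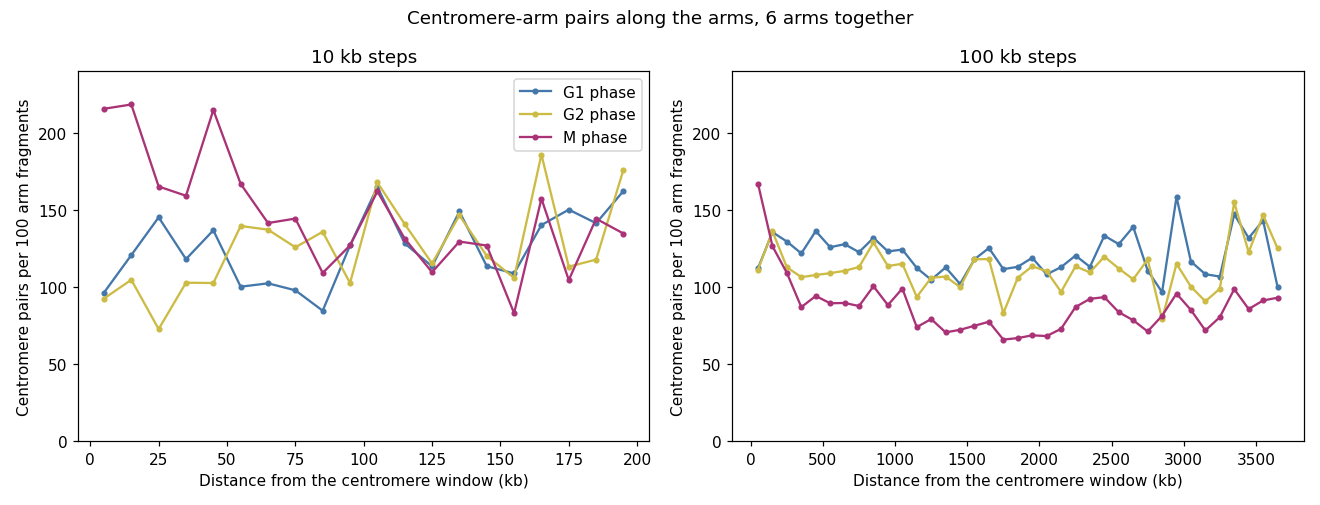
Centromere pairs per 100 arm fragments (vertical axis) against distance from the centromere window in kb (horizontal axis), over the 6 arms together, in 10 kb steps to 200 kb (left) and in 100 kb steps along the whole arms (right). M phase starts at 215.4 in the first 10 kb and is lower over the distant arm, whereas G1 phase starts at 96.15 and G2 phase at 92.31, below their distant levels.

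Contacts with the centromere of the same chromosome and with those of the other chromosomes both took part. Within 50 kb the intrachromosomal pairs per 100 fragments were 78.7 in M phase, with 42.13 for G1 phase and 33.8 for G2 phase, and the interchromosomal pairs 117.6, 79.63 and 61.11. Beyond 1000 kb the intrachromosomal values were 19.69, 32.3 and 27.59 and the interchromosomal ones 58.83, 84.19 and 79.76. For pairs within 200 kb against pairs beyond 500 kb, M phase exceeded G1 phase 1.943-fold for intrachromosomal pairs (Fisher's exact test, adjusted p = 9.41e-17) and 1.636-fold for interchromosomal pairs (adjusted p = 4.66e-17). M phase exceeded G2 phase 1.755-fold (Fisher's exact test, adjusted p = 3.28e-12) and 1.507-fold (adjusted p = 1.75e-12). Because the repeats hide which centromere an end came from, the 18 centromere fragments repeated on their own chromosome only were also taken alone, a choice made after the data were seen. Their interchromosomal pairs within 50 kb numbered 8, 5 and 26 (G1, G2 and M phase), against 434, 280 and 282 beyond 500 kb. The near to far ratio of M phase was 5.002 times that of G1 phase (Fisher's exact test, adjusted p = 6.81e-05) and 5.163 times that of G2 phase (adjusted p = 0.000442).

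In M phase near fragments exceeded far ones on every arm and, by the centromere listed, for every centromere. The level within 50 kb over that beyond 500 kb ran from 1.687 (right arm of chromosome III) to 3.016 (right arm of chromosome II) over the 6 arms in M phase, from 0.8119 to 1.449 in G1 phase and from 0.7152 to 1.147 in G2 phase. Over the 9 combinations of a centromere with the arms of a chromosome it ran from 1.711 (centromere II with chromosome III) to 3.245 (centromere I with chromosome I) in M phase, from 0.7864 to 1.516 in G1 phase and from 0.4829 to 1.277 in G2 phase. The ranges of M phase and of the other phases did not overlap in either grouping. The grouping by centromere rests on repeated ends, which may belong to another centromere. With the 18 chromosome-specific fragments, which had between 0 and 10 pairs within 50 kb in a combination, the 9 ratios ran from 0.8142 (centromere III with chromosome II) to 5.092 in M phase, from 0 to 4.266 in G1 phase and from 0 to 1.755 in G2 phase, and these ranges overlapped.

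**Figure D3:**
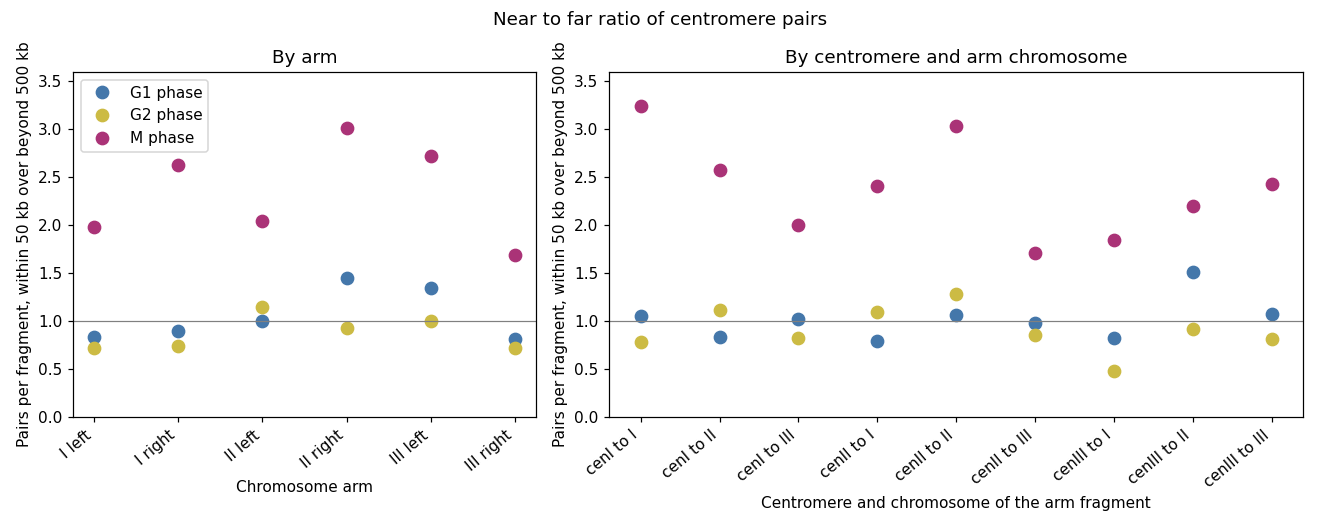
Centromere pairs per arm fragment within 50 kb divided by those beyond 500 kb (vertical axis), by chromosome arm (left) and by centromere and chromosome of the arm fragment (right), 1 point per phase. All M phase points lie between 1.687 and 3.245, above the highest G1 or G2 phase point, 1.516.

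Towards other partners the same fragments showed no such rise. Those within 50 kb had 71.3 pairs per 100 fragments with the outermost 100 kb of chromosomes I and II (subtelomeres) in M phase, against 79.41 for fragments beyond 1000 kb. In G1 phase these values were 113.9 and 105.8, and in G2 phase 80.56 and 79.9. For subtelomere pairs the ratio within 50 kb to beyond 500 kb differed between M and G1 phase by a factor of 0.8629 (Fisher's exact test, adjusted p = 0.493) and between M and G2 phase by 0.9322 (adjusted p = 0.538). Pairs with all other fragments numbered 379.6 per 100 fragments within 50 kb and 390.4 beyond 1000 kb in M phase, 598.6 and 613.1 in G1 phase, and 519 and 545.1 in G2 phase.

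**Figure D4:**
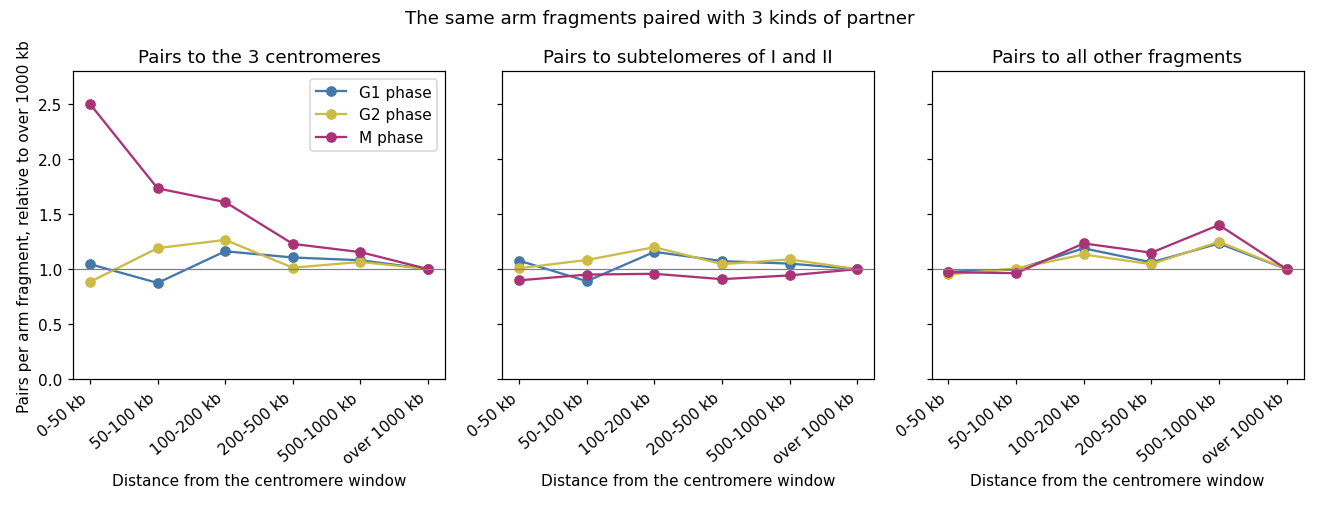
Pairs per arm fragment relative to the fragments beyond 1000 kb (vertical axis) by distance from the centromere window (horizontal axis), for pairs to centromeres, to subtelomeres of chromosomes I and II and to all other fragments. The M phase line rises towards the centromere in the first panel only, where 196.3 pairs per 100 fragments within 50 kb stand against 78.52 beyond 1000 kb. The partners in the other panels are not matched to the centromeres in distance.

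Long arm fragments had more centromere pairs than short ones (Spearman's rho over the 8369 arm fragments, which share their libraries, was 0.6543, 0.6541 and 0.5813), yet the M phase difference was present at each length. Fragments under 500 bp had 76.39 pairs per 100 within 50 kb and 18.42 beyond 500 kb in M phase. From 500 to 1000 bp the values were 145.7 and 52.34, from 1000 to 2000 bp 213.3 and 96.83, from 2000 to 5000 bp 338.1 and 181.8, and over 5000 bp, with 7 near fragments, 685.7 and 365.3. The step was thus proportionally largest for the short fragments. For fragments under 500 bp, G1 phase had 22.22 and 29.71 and G2 phase 29.17 and 25.24.

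Taken as a share of the network pairs of the same fragments, within 200 kb over beyond 500 kb, intrachromosomal centromere pairs were higher near the centromere in all phases: 1.208-fold in G1 phase (Fisher's exact test, adjusted over 6 tests, p = 0.00249), 1.349-fold in G2 phase (adjusted p = 1.01e-06) and 2.206-fold in M phase (adjusted p = 2.05e-49). Interchromosomal pairs were higher near the centromere in M phase, 1.438-fold (Fisher's exact test, adjusted p = 4.21e-25), with ratios of 0.9352 in G1 phase (adjusted p = 0.169) and 1.024 in G2 phase (adjusted p = 0.329). Near fragments lie more often on chromosome III than far ones do, and the part of this in the intrachromosomal ratios was not tested. The same ratios of counts in place of pairs, given without a test, were 2.709, 3.119 and 6.097 for intrachromosomal and 2.1, 2.357 and 3.995 for interchromosomal contacts (G1, G2 and M phase). Without pairs that share a 50 bp stretch these count ratios were 1.168, 1.341 and 2.168 and 0.9088, 1.017 and 1.428.

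At the centromere end, the outer repeats dg and dh, the sites of heterochromatin, held most contacts with the arms: 58.43%, 64.57% and 57.47% of pairs (G1, G2 and M phase). The innermost repeats held 27.37%, 22.82% and 28.19%, and the central core 5.128%, 4.574% and 5.112%. Fragments annotated with several classes were counted as core first, then as innermost and then as outer repeats. The core class therefore includes some imr sequence, and the innermost class some dg and dh sequence. Per kb, the outer repeats had 68.21, 68.91 and 50.22 pairs, the innermost repeats 73.05, 55.66 and 56.32, the central core 33.61, 27.4 and 25.08, and the flanking genes and tRNA genes inside the windows 7.544, 5.753 and 4.591. The classes also differ in how many fragments are repeated: 8 of 22 core and 23 of 32 flank fragments were repeat-free, against 5 of 50 in the outer and 2 of 38 in the innermost repeats. Over repeated fragments alone the core had 45.45, 36.32 and 33.84 pairs per kb and the flank 20.11, 14.47 and 11.76, still below the outer (68.58, 69.28 and 50.15) and innermost repeats (73.19, 55.69 and 56.68). An end that lies in a repeat may come from any of its copies. The M phase gradient was present for the outer repeats (110.6 pairs per 100 arm fragments within 50 kb, 47.03 beyond 500 kb), for the innermost repeats (57.87 and 23.3) and for fragments where no repeat or gene is named (16.2 and 4.703). In that last class 413 of the 459 M phase pairs were of repeated fragments. For the flank, with 10 near pairs, the M phase values were 4.63 and 2.706. For the central core the values were 6.944 and 4.625 in M phase, with 15 near pairs, and 9.722 and 6.387 in G1 phase. The differences by class were not tested.

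The fragment with the most arm pairs was the dgI fragment shown above (I:3756526-3762363), with 447, 416 and 310 pairs (G1, G2 and M phase). The first dhIII copy (III:1111195-1115646) followed with 380, 466 and 290, and the copies that start at 1117955, 1124715 and 1131475 had 262, 321 and 224, then 237, 299 and 164, and then 160, 194 and 107. The 10 fragments with the most pairs held 32.59%, 38.93% and 33.43% of pairs (G1, G2 and M phase). The dhIII copies named here are all 4452 bp long. The first 3 of these copies share all their 50 bp stretches, and the last has 98.85% of them in common with the first. In G2 phase 33 arm partners were common to the first and second copies, 7.082% of those of the first and 10.28% of those of the second. Most arm partners of either were thus not listed on the other, and which copy an end came from is not known. The overlap that chance would give was not computed. With most pairs at a single count, this overlap does not tell whether the copies meet different fragments.

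Over whole arms, each centromere met the chromosomes nearly in proportion to their totals. The number of pairs of each centromere with the arms of each chromosome lay between 0.9671 and 1.052 times the number expected from the totals over all 9 combinations and 3 phases. Intrachromosomal pairs made up 30.07% of counts (29.2 to 30.95) for G1 phase, 28.79% (27.9 to 29.7) for G2 phase and 30.66% (29.65 to 31.7) for M phase. The ratio of intra- to interchromosomal pairs was lower in G2 phase than in G1 phase by a factor of 0.9267 (Fisher's exact test, adjusted p = 0.0238) and higher in M than in G2 phase by 1.097 (adjusted p = 0.0189). Both calls were lost with windows 20 kb wider on each side (Fisher's exact test, adjusted p = 0.0723 for both) and with the 18 chromosome-specific fragments (adjusted p = 0.953 for both). Those 18 fragments hold no 50 bp stretch found on another chromosome, although some lie beside fragments that do. Their intrachromosomal pairs were 1.022, 1.022 and 1.039 times the number expected from the totals. Within 50 kb, intrachromosomal pairs over all centromere fragments were 1.2 times the number expected from the chromosomes of those fragments in M phase (170 against 141.7), 1.021 times in G1 phase and 1.053 times in G2 phase.

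By the fragment listed, centromere III, which has the longest window, held the largest part of the pairs, 45.49%, 48.34% and 44.26% (G1, G2 and M phase), against 32.68%, 31.44% and 33.94% for centromere II and 21.83%, 20.22% and 21.81% for centromere I. With the 18 chromosome-specific fragments centromere II had 396, 238 and 321 pairs, against 256, 172 and 180 for centromere III and 188, 126 and 123 for centromere I. Centromere II also has the most of these fragments, 9 with 9206 bases. Centromere III has 5 with 5216 bases and centromere I 4 with 2778 bases. The totals are therefore not levels per fragment or per base. Among the arms, those of chromosome III, the shortest chromosome, had 105.1 pairs per 100 fragments in M phase, compared with 88.26 for chromosome I and 86.9 for chromosome II. In G1 phase the 3 values were 121.8, 121.1 and 120.9, and in G2 phase 109.7, 112.1 and 109.6, so the spread between chromosomes was smaller in both. Of the 1460 chromosome III fragments 121 (left arm) and 152 (right arm) lay within 200 kb, against 145 and 123 of 3809 on chromosome I. On chromosome II 141 and 126 of 3100 did. Beyond 500 kb the M phase levels were 97.48 and 90.81 on chromosome III, 80.58 and 85.7 on chromosome I and 89.37 and 75.14 on chromosome II. The part of distance in the chromosome III level was not tested.

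Few single pairs recurred. Only 65 of the 25782 pairs (0.2521%, 0.1979 to 0.3212) were seen in all 3 phases, against 10.7% of the pairs of the whole network, and 24629 (95.53%) were seen in a single phase. An arm fragment takes together its pairs with all centromere fragments, so its recurrence cannot be set against that of pairs. Of the 6590 arm fragments that met a centromere in any phase, 2256 (34.23%) did so in each phase. Pairs with 3 or more counts came to 21 (0.2071%) for G1 phase, 46 (0.4963%) for G2 phase and 11 (0.1449%) for M phase, far below the network's 17.9% (G1 phase), 19.3% (G2 phase) and 16.2% (M phase). Among network pairs without a shared stretch the shares were 11.37%, 11.83% and 6.381%. The gap thus did not close when pairs with a shared stretch were left out, although repeated fragments remained. The 3-count pairs came to 59 in all, of which 20 were seen in all phases and 5 had 3 or more counts in each.

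Of these 59 pairs, 13 joined fragments with a shared 50 bp stretch, and these included the pair with the most counts in each phase. In all 13 the shared sequence lay in the centromere fragment and in the fragment beside the arm fragment, not in the arm fragment itself. For 12 of them it was a tRNA gene and for 1 the coding sequence of a ribosomal protein gene. In the 12 tRNA pairs the arm fragment passed the rule because the annotation filter looks at the fragment alone. Ribosomal protein genes are not among the terms of the filter. A fragment in the lys1 end of the centromere I window (I:3742986-3745530) and a 96 bp fragment that overlaps the rpl1001 gene (II:2082229-2082324) had 17, 22 and 7 counts (G1, G2 and M phase). The stretch of 149 bp in common lies in rpl1002 on chromosome I and rpl1001 on chromosome II, both for ribosomal protein L10, and is printed in capitals to show that the copies have the same letters.
rpl10 stretch, centromere side, I:3744385-3744553: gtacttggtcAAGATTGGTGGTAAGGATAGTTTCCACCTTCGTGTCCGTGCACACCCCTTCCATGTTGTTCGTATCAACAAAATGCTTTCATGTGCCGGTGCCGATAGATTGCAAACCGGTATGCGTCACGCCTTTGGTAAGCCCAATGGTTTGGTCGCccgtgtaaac
rpl10 stretch, arm side, II:2081735-2081903: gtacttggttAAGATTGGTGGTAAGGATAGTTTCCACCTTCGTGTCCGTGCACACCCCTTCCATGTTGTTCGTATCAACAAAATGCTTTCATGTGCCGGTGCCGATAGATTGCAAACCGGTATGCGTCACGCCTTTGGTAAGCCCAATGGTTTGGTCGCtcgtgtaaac
Fragments near either edge of the centromere II window met a fragment on the left arm of chromosome I that holds parts of mug65 and lcp1, for a cyclin L family protein, and is called cyclin related here (I:716864-718065), the one at II:1646247-1647360 with 8, 21 and 4 counts (in the same order) and the one at II:1600909-1605416 with 12, 16 and 3. Both carry a tRNA-Glu gene with the same 73 bases as the tRNA-Glu gene beside the arm fragment.
tRNA-Glu gene, centromere II, II:1646818-1646910: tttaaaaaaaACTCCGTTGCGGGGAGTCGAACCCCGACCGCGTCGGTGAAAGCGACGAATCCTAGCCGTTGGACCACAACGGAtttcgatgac
tRNA-Glu gene, arm of chromosome I, I:718108-718200: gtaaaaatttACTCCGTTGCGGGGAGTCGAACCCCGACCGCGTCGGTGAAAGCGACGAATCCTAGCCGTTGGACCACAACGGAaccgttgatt
The other shared stretches were tRNA genes for Gly, Ser, Glu, Lys, Thr and Ile, between 53 and 86 bp long. The part that shared sequence plays in these counts was not tested.

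**Figure D5:**
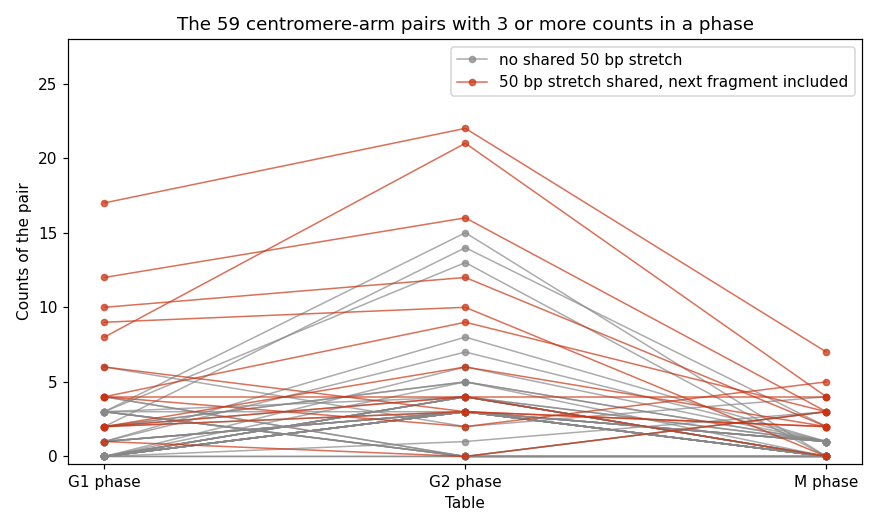
Counts (vertical axis) in the G1, G2 and M phase tables (horizontal axis) of the 59 centromere-arm pairs with 3 or more counts in a phase, 1 line per pair, coloured by whether the ends or the next fragments share a 50 bp stretch. The pair with the most counts in each phase, 17, 22 and 7, shares one.

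Of the 59 pairs, 16 had repeat-free fragments at both ends. Among them a pair joined the central core of centromere II (cnt2, II:1622557-1623194) with I:2770642-2772327, a fragment holding parts of rif1, for a telomere and replication timing protein, and ppk6, with 2, 14 and 2 counts (G1, G2 and M phase). The next core fragment (II:1623195-1624552) and the next arm fragment (I:2772328-2772695) repeated this contact with 1, 7 and 1 counts and 1, 8 and 1 counts. Another, with the same total of counts, joined a fragment with no annotation at the left of centromere I (I:3751799-3752275) with I:1036581-1041216, which holds les1, efm6 and tht2, with 3, 15 and 0 counts. Its 37 bp neighbour had 3, 13 and 0 counts with the same arm fragment. Neighbouring fragments are not independent, and single pairs were not tested. In both contacts G2 phase had the most counts. Pairs with arm fragments near a centromere included those of sfr1, for a recombination protein (II:1580338-1580524 and II:1580525-1581844, 9.569 and 8.816 kb from centromere II). Each of these fragments had 4 counts in G2 phase and 0 in G1 and M phase with either innermost repeat of centromere I (I:3766708-3768941 and I:3773330-3775563). Both repeat fragments hold a 50 bp stretch found on another chromosome, and the sfr1 fragments are neighbours. Whether these are separate contacts, and with which centromere, is not known.

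The arm fragments that centromeres met in every phase with the most counts were mostly long and spread over the arms. By the rule that ranks repeat-free fragments by their lowest value over the phases (2179 of 8369 had a count in each phase), the first was III:854074-871844, 17771 bp long and 202 kb left of centromere III, which holds 7 genes including prp28 and pup3, for a splicing factor and a proteasome subunit. It had 19, 12 and 12 counts (G1, G2 and M phase), in 15, 10 and 11 pairs. The fragment with pab1 (pabp in RefSeq), for the poly(A) binding protein (I:1532207-1545430, 13224 bp, 2201 kb from the centromere), had 9, 15 and 14 counts. The fragment with sec16, clr5 and pgt1 (I:5417844-5427693) had 9 in each phase. The pab1 and sec16 fragments lie far from their centromere, and their counts came from between 8 and 14 different centromere fragments in a phase.

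Among the other fragments named by the rule, the one with pho843, dbl1, aah3 and mok14 (III:828242-840811) had 8, 10 and 13 counts, the one with sat1 and ssn6, a transcriptional corepressor (II:3856626-3868713), 11, 8 and 11, and the one with rsc7, ole1 and gst4 (III:1391784-1400732) 8, 11 and 7. The fragment with rpl36-1 and mob2 (III:505635-513633) had 6, 8 and 13, the one with arg7 (II:307733-315391) 6, 7 and 7, and the one with rpb8 and pol5 (II:2223956-2233219) 8, 11 and 6. These 6 lay between 230.5 and 2208 kb from a centromere and were between 7659 and 12570 bp long. The remaining named fragments were short: those of sry1 (III:139041-140936, 8, 20 and 7 counts) and tom70 (I:2433161-2434971, 7, 9 and 7 counts), the cyclin related fragment (21, 39 and 7 counts) and the fragment beside rpl10. Each of these 4 lies next to a fragment with a tRNA gene or rpl1001 in common with a centromere window. By summed counts without the repeat filter, the first 5 fragments added the one with les1 (11, 31 and 2 counts).

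The 8 fragments within 50 kb with the most M phase pairs were chosen for those pairs and are given as a description. The ucp12 fragment (III:1017271-1022445, 45.14 kb from centromere III), for an RNA helicase, had 7, 4 and 13 pairs (G1, G2 and M phase). The ard1 fragment (I:3729362-3731839, 9.399 kb from centromere I), which holds the N-terminal acetyltransferase gene naa10 (ard1 in the deposited annotation) and grx2, had 3, 2 and 10. The fragment with gbs1, psy1 and naa40 (III:1024596-1029654) had 2, 3 and 8, and a fragment with no gene on chromosome II (II:1680127-1682147) had 5, 2 and 7. The other fragments had smaller differences: that with isp4 had 6, 2 and 6 pairs, that with ipk1 5, 4 and 6, and those with bud6 and with pyk1, for pyruvate kinase, 3, 4 and 6 each. In each of the first 4, centromere fragments listed on other chromosomes were among the M phase pairs: 7 of 13 for ucp12, 8 of 10 for ard1, 2 of 8 for psy1 and 4 of 7 for the fragment with no gene. Repeated centromere ends may belong to another centromere than the one listed. Of the ard1 pairs, 1 joined fragments that share a 50 bp stretch.

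Meiotic genes that are silenced in growing cells, some of them in small heterochromatin islands, were taken as a list of 7 (mei4, ssm4, rec8, spo5, mcp5, mcp7 and mug8). Their 25 arm fragments had 25, 18 and 25 centromere pairs (G1, G2 and M phase), or 8.588, 6.183 and 8.588 pairs per 10 kb. All arm fragments together had 9.32, 8.518 and 6.975 per 10 kb. The median number of pairs per fragment was 1, 0 and 1 for the list and 1, 1 and 0 for all arm fragments. These differences are of a few pairs and were not tested. Each of the 7 genes had at least 1 pair in each phase. The mei4 fragments, 115 to 117 kb from centromere II, had 5, 2 and 5 pairs (G1, G2 and M phase).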

How the data were processed

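GCC libraries of G1, G2 and M phase cells were made from cross-linked chromatin cut with AseI. The authors placed 50 bp paired ends on the genome with Topography, with no mismatch, and deposited 1 table of pair counts for each phase, with both replicates pooled; the labels name the build ASM294v2. The deposited counts are whole numbers per fragment pair and not normalized. All value columns belong to 1 of the 3 phases, and 0 per-sample columns were left unused.

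Pairs of adjacent fragments were left out. Counts were divided by the network total of the phase, and pairs by the number of arm fragments. Fragments were matched to RefSeq ASM294v3 by their cut ends for 50 bp repeats, genes and sequences. Gene names are those of the deposited annotation where it gives one, and otherwise of RefSeq. Shares have Wilson and levels exact Poisson 95% intervals. Phases were compared by two-sided Fisher's exact tests with Benjamini-Hochberg adjustment, with near set at 200 kb and far at 500 kb. The steps were tested on simulated data. Tools were Python 3.11.15, NumPy 2.4.6, pandas 2.3.3, SciPy 1.17.1 and Biopython 1.88.

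Named fragments were repeat-free, had a count in every phase and were ranked by their lowest counts per 1000000: the first 12, the first 4 on each chromosome, and the first 5 by summed counts without the repeat filter. Fragments within 50 kb and recurrent pairs were named after their values were seen. The members and lists were chosen with earlier results of these data known.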

Additional observations from a re-analysis of the deposited data

Results flagged for a closer look

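The near to far ratio of centromere pairs differed between phases by the test of the difference itself. For pairs within 200 kb against beyond 500 kb it was 1.738 times as high in M phase as in G1 phase (Fisher's exact test, adjusted p = 3.63e-32) and 1.597 times as high as in G2 phase (adjusted p = 1.4e-23). For pairs within 50 kb the factors were 2.339 (Fisher's exact test, adjusted p = 1.1e-26) and 2.752 (adjusted p = 7.15e-33). Each phase is 1 strain and 1 pooled table, so phase, strain and library cannot be told apart.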

How the results depend on the processing

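No paired analysis was possible because each table pools both replicates of its phase, so neither a replicate block nor leaving out a replicate could be run. The M over G1 and M over G2 factors of the near to far ratio kept their direction and passed the threshold under every alternative that gave a value; with only pairs of at least 3 counts no value could be had, since G1 and M phase then had 0 near pairs. Values are given in the order G1, G2 and M phase, and alternatives with centromere fragments repeated on their own chromosome only were added after seeing the data. Over all results and alternatives, 199 values kept their direction and size or call, 31 moved, 17 turned direction, 8 lost and 2 gained the call. Calls on the near to far shares within a single phase used p-values that were not adjusted.

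Centromere-arm counts per 1000000 were 120037, 129354 and 127396 as pairs per 1000000 pairs, 58.12, 128.6 and 20.34 with at least 3 counts, 4906, 4300 and 3522 with repeat-free arm fragments, 77321, 80222 and 89497 without pairs that share a 50 bp stretch, 4168, 3762 and 3044 with the annotation filter on both ends, and 410.8, 249.5 and 296.7 with the chromosome-specific centromere fragments. The intrachromosomal share was 15.65%, 33.58% and 7.143% with at least 3 counts and 33.85%, 33.94% and 34.18% with the chromosome-specific fragments.

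The ratio of intra- to interchromosomal pairs with at least 3 counts was 2.732 (G2 over G1), 0.425 (M over G1) and 0.1556 (M over G2). With wider windows G2 over G1 was 0.9366 and M over G2 1.07, and with the chromosome-specific fragments 0.9869 and 1.026, each no longer past the threshold.

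For shares of counts (the tests are on pairs), the intrachromosomal near to far ratio with at least 3 counts was 0, 4.505 and 0, and with the chromosome-specific fragments it was 2.568 in G1 and 2.177 in G2 phase, short of the threshold. With 50 kb as near it was 4.953 in G2 phase, also short of it. The interchromosomal ratio in G1 phase was 0.9352 as pairs, 0 with at least 3 counts, 0.8559 with repeat-free arm fragments (Fisher's exact test, unadjusted p = 0.0135), 0.9088 without shared stretches and 1.626 with the chromosome-specific fragments (Fisher's exact test, unadjusted p = 0.0421). It was 0.9249 in G2 phase with repeat-free arm fragments and 0 in M phase with at least 3 counts.

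The G2 over G1 factor of the near to far ratio was 1.113 with the annotation filter on both ends (Fisher's exact test, adjusted p = 0.0432). With 50 kb as near it was 0.8499 for all, 0.9261 for intrachromosomal and 0.8181 for interchromosomal pairs, and with the chromosome-specific fragments 0.8446 for intrachromosomal pairs. The level within 50 kb over beyond 500 kb was 0, 3.567 and 0 with at least 3 counts and 0.8669, 0.5646 and 3.27 with the chromosome-specific fragments. With wider windows it was 0.9978 in G2 and 2.04 in M phase. Of pairs with at least 3 counts in a phase, 33.9% were seen in all phases. The cause of these differences was not tested. At this depth nearly all members had 1 count, so single pairs were not compared between phases.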
